A study of Mus musculus and Homo sapiens with 26 samples.

Results

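The microRNAs (miRNAs) miR-103 and miR-107 were followed through small RNA sequencing (miR-seq) of cells with changed Dicer, under every name they carry in the tables. The mouse rule lists 5 strands, and 4 of them (miR-103-3p, miR-103-1-5p, miR-107-3p and miR-107-5p) are among the 1396 names used from the mouse tables. miR-103-2-5p was not analysed here beyond its sequence. The human table gave 3 names of 1080, which are miR-103a-3p, miR-107-3p and miR-103a-2-5p.

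P19 mouse embryonic carcinoma cells were measured in total RNA as Dicer (+/+) cells (WT), as Dicer (+/-) cells with a frameshift truncation of 1 Dicer1 allele (HetKO), and as Dicer (HM/-) cells (HM), with n = 6 libraries each. HM cells were made from HetKO cells by changing the remaining allele to the RNase IIIb hotspot variant, so HetKO and HM share the lost allele and every HM library descends from that line. The study's methods describe silencing of a chromosome 12 miRNA cluster in the HM line as an effect of the clone. RNA bound to Argonaute 2 (AGO2 IP) was measured in WT cells (n = 2) and HM cells (n = 4). HEK293T cells, a human embryonic kidney line, lacked DICER1 in both libraries and had WT Dicer or the RNase IIIa variant D1320A put back by overexpression (n = 1 each). The labels name D1320A, while the series' design text names the human RNase IIIb hotspot variant for this experiment; the labels were followed. The labels call the P19 libraries biological replicates.

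Dicer cuts the hairpin precursor of a miRNA into a duplex. Its RNase IIIb domain cuts the 5p arm and its RNase IIIa domain cuts the 3p arm, and AGO2 then keeps the guide strand of the duplex and drops the passenger strand. miR-103 and miR-107 are known for guide strands on the 3p arm that repress Dicer mRNA, and let-7 on the 5p arm is also known to do so.

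The mature sequences show how close these strands are. They come from RefSeq (GRCm38.p6), all 5 mouse names matched, they run 5′ to 3′, and capitals mark the seed (bases 2 to 8), which pairs with targets.
mmu-miR-103-3p: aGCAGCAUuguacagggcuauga
mmu-miR-107-3p: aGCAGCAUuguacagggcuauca
mmu-miR-103-1-5p: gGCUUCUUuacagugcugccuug
mmu-miR-103-2-5p: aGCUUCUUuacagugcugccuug
mmu-miR-107-5p: aGCUUCUUuacaguguugccuug
mmu-miR-16-5p: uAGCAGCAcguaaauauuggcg
Counted from base 1 at the 5′ end, miR-107-3p differs from miR-103-3p by G22C alone, so 22 of 23 bases are identical and the seed GCAGCAU is shared. No other name among the 1679 mature mouse names of the RefSeq table has that seed. miR-103-2-5p differs from miR-103-1-5p by G1A, and miR-107-5p differs from miR-103-2-5p by C16U, so the 5p strands share the seed GCUUCUU. miR-16-5p is shown because its seed holds AGCAGC shifted by 1 base. AGCAGC starts at base 1 or 2 in 13 of the 1679 names (0.774%), and these include the miR-15/miR-107 group described further on. Reads that end before base 22 cannot tell miR-103-3p from miR-107-3p, and how the authors' counting treated them is not given in the sources used here.

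The hairpins lie in introns of the pantothenate kinase genes, which encode the first enzyme of coenzyme A synthesis. In GRCm38.p6, Mir103-1 is at chr11:35782396-35782481 on the plus strand in Pank3. Mir103-2 is at chr2:131288052-131288137 on the plus strand in Pank2. Mir107 is at chr19:34820687-34820773 on the minus strand in Pank1. Each hairpin lies on the strand of its host gene and overlapped no annotated exon (GENCODE annotation). Both Mir103 hairpins give the same miR-103-3p, so its reads cannot be split between these loci.

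Total RNA values are the authors' spike-in normalised signal, and AGO2 IP values are the authors' RPM, which over the names used summed to 822326 to 832586 in the WT and 975456 to 977911 in the HM libraries. All values were whole multiples of the value of 1 read (within 0.01 reads for P19 and 0.6 score units, beside rounding, for HEK293T), which gave 1530466 to 3246326 reads per total RNA library, 4476845 to 5889717 per AGO2 IP library, and 822285 and 103661 in HEK293T with WT Dicer and D1320A. HM total RNA libraries held fewer reads (at most 1702756) than those of WT (at least 2765262). Where a library held 0 reads, 3 reads could still have been missed, which is a level of up to 1.22 signal units in total RNA or 0.655 RPM in AGO2 IP. All 8 listed markers of pluripotent cells (3p strands of the miR-290 and miR-302 clusters) had means of at least 100 signal units in each genotype. The 11 listed markers of other cell types summed to 3683 to 5116 signal units per WT library, 3519 to 4476 per HetKO library and 637 to 985 per HM library. miR-9-5p, a neuronal 5p strand, led that list in WT (3371 units), and miR-1a-3p, a muscle strand, led it in HM (461 units). Markers on the 5p arm were planned to be read in WT and HetKO only. miR-9-5p had 22.6 units in HM, where 98.9% of 5p-miRNAs were called lower than in WT. The lower HM sum can therefore not be read as fewer cells of other types. Of the listed 3p markers tested, limma called miR-143-3p and miR-124-3p lower in HM than in WT (log2 change -1.63 and -0.85). miR-142a-3p (-0.33), miR-1a-3p (0.27) and miR-133a-3p (0.31) were not called, and 28.4% of 3p-miRNAs were called lower. In HetKO, miR-143-3p (-2.60) and miR-142a-3p (-1.67) were called lower than in WT, where 19.3% of 3p-miRNAs were. miR-124-3p (0.46) and miR-133a-3p (-0.76) were not called there. The part of other cell types in the results was not tested. In WT and HetKO, replicates 1 and 4, 2 and 5, and 3 and 6 deviated together (mean correlation 0.638 and 0.569), and the labels name no batch. In HM the same pairs had correlations of 0.314, -0.467 and 0.0510 (mean -0.0338). By chi-square per degree of freedom, the closest HM libraries were 1 and 4 (24.1) and 2 and 5 (39.1), but not 3 and 6 (113). In RNA from whole cultures, fewer cells and less of a miRNA per cell cannot be told apart. The Dicer change itself cannot be read from miRNA tables.

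miR-103-3p, the main guide strand here, was among the most abundant miRNAs of P19 cells. In WT libraries it ranged from 11761 to 16088 signal units with a median of 14349, and it ranked 21 of 1162 miRNAs detected. HetKO libraries ranged from 8015 to 13907 with a median of 11845. HM libraries ranged from 11446 to 13717 with a median of 12148. The 3 groups overlapped, and the lowest values were those of HetKO replicates 3 and 6. The means were 13964 ± 1850 in WT, 11266 ± 2444 in HetKO and 12461 ± 1009 in HM (SD, n = 6). In HM its rank was 9 of 930 miRNAs detected.

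miR-107-3p, its near copy, was present at far lower levels. WT libraries ranged from 261 to 359 with a median of 335. HetKO libraries ranged from 188 to 274 with a median of 247, and HM libraries from 212 to 269 with a median of 251. Only WT replicate 1 fell within the range of the other genotypes. The means were 324 ± 36.6 in WT, 234 ± 34.5 in HetKO and 245 ± 21.7 in HM (SD, n = 6), and its rank was 169 in WT and 110 in HM.

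**Figure D1:**
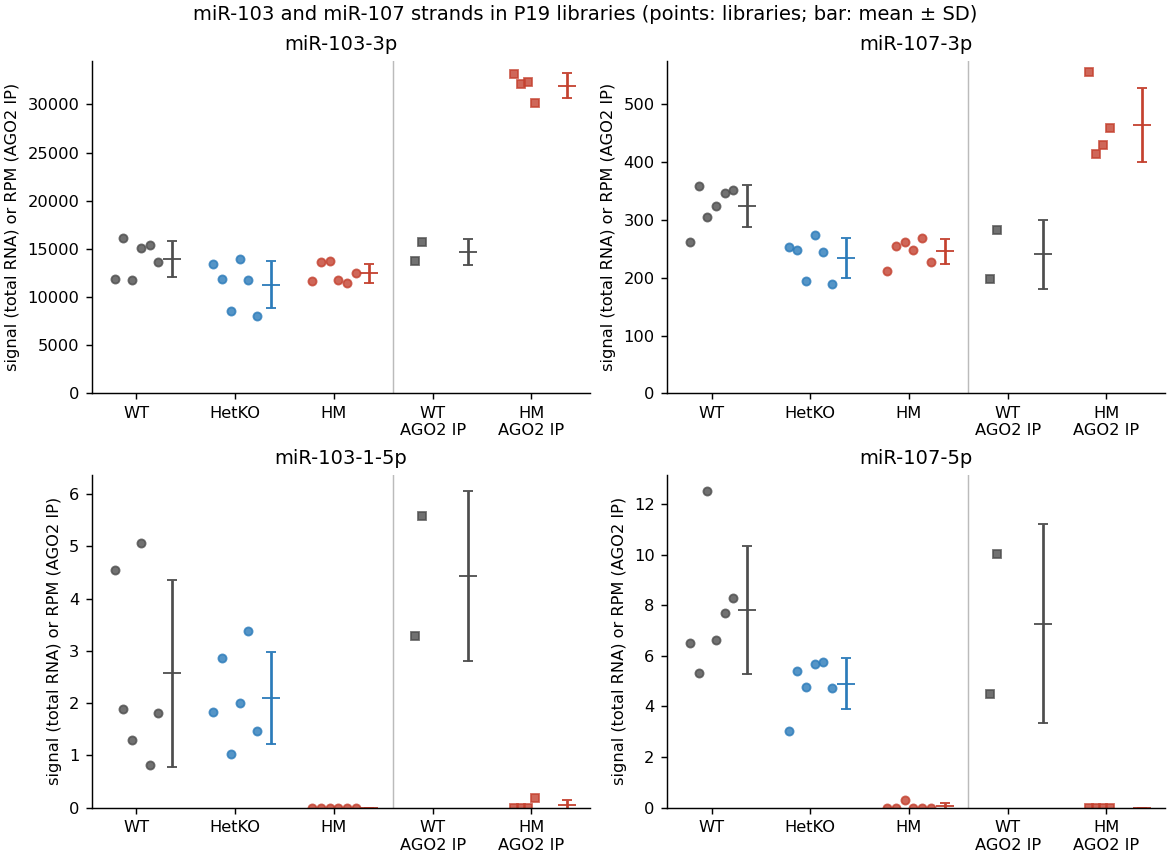
Level of each strand in every P19 library (y axis, signal units for total RNA and RPM for AGO2 IP, which are different scales), with circles for total RNA, squares for AGO2 IP and bars for the mean ± SD. miR-103-3p overlapped between the 3 total RNA groups, both 3p strands were higher in HM than in WT AGO2 IP, and both 5p strands were at or near 0 in HM.

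HM and WT differ both in the lost allele and in the RNase IIIb change, so this comparison holds both together, with any other difference between the lines. miR-107-3p was lower in HM (log2 change -0.40, SE 0.13, adjusted p = 0.00970 in limma), and miR-103-3p differed by -0.16 without passing the test (SE 0.13, adjusted p = 0.277 in limma). So 1 of the 2 members that passed the filter (a mean of at least 10) was called, lower, where 59.4% of all 416 miRNAs tested and 28.4% of 218 3p-miRNAs were called lower. Calls in either direction covered 82.2% of all miRNAs (95 higher and 247 lower). When each replicate pair was averaged to 1 sample, miR-107-3p no longer passed (adjusted p = 0.0715 in limma).

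The other guide strands of the 3p arm give the scale for these changes. A guide 3p-miRNA made up over 70% of its duplex and had a mean over 100 in WT total RNA, which holds for miR-103-3p, miR-107-3p and 62 others. The median change of the 62 in HM was -0.41, and 48.4% of them were called lower and 12.9% higher. miR-103-3p changed less than that median, with 37 of the 62 below it, and miR-107-3p lay at the median, with 32 below it. Set within each library against the mean log2 level of the 62, miR-103-3p was higher in HM than in WT by 0.33 (3.29 ± 0.21 against 2.95 ± 0.16, SD, n = 6; two-sided exact permutation p = 0.0108, 0.0340 after Benjamini-Hochberg adjustment over 44 tests). miR-107-3p differed by 0.092 on that scale (exact permutation p = 0.455, adjusted 0.556). Against stricter guide strands (over 90% of the duplex and a mean over 1000 in WT) that value was 0.17 (unadjusted exact permutation p = 0.00649), and against the guides' median it was 0.32 (unadjusted exact permutation p = 0.0108). These tests take the 6 libraries of a group as independent although replicate pairs deviated together in WT. Within replicates 2 and 5 the difference of miR-103-3p relative to the 62 was 0.13.

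The direction of both 3p strands in HM depended on the scale. Rescaled to the same miRNA total per library, miR-103-3p was higher in HM by 0.95 (adjusted p = 1.9e-06 in limma) and miR-107-3p by 0.71 (adjusted p = 1.1e-05 in limma). The same rescaling moved the median of all miRNAs tested from -1.15 to 0.25 and the calls to 207 higher and 194 lower. The median change of 180 5p-miRNAs in HM was -6.13, and 98.9% of them were called lower. Together miR-103-3p and miR-107-3p made up 1.35 ± 0.0902% of the summed signal in WT and 2.62 ± 0.304% in HM, but 2.83 ± 0.217% and 2.67 ± 0.304% of the summed 3p signal (SD, n = 6).

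**Figure D2:**
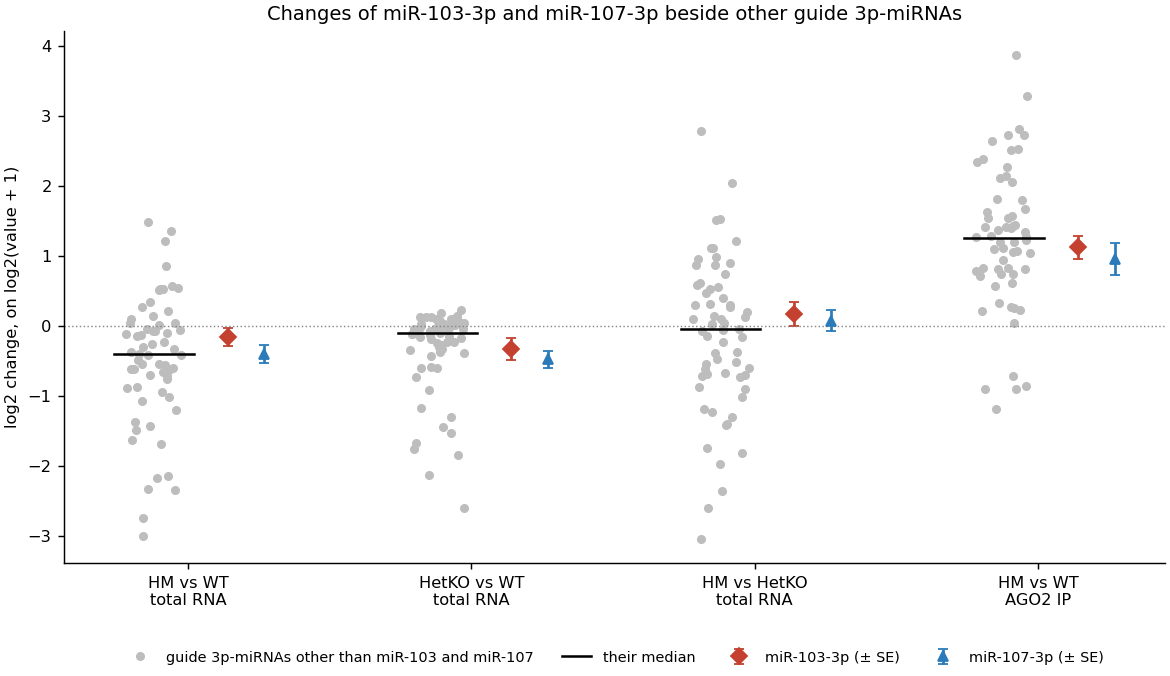
Log2 change on log2(value + 1) (y axis) of miR-103-3p (diamonds) and miR-107-3p (triangles), with SE, beside 62 other guide 3p-miRNAs (grey points, black line for their median) in 4 comparisons (x axis). In HM against WT, miR-103-3p lay above the median of -0.41 in total RNA, and both strands lay below the median of 1.26 in AGO2 IP.

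HetKO differs from WT in the loss of 1 allele without the RNase IIIb change. That loss cannot be told apart from other differences between these lines. miR-107-3p was lower in HetKO (log2 change -0.48, SE 0.12, adjusted p = 0.0114 in limma), and miR-103-3p differed by -0.33 (SE 0.15, adjusted p = 0.136 in limma). This is 1 of 2 members called lower where 22.8% of 434 miRNAs and 19.3% of 202 3p-miRNAs were called lower, and 27.2% were called in either direction (19 higher and 99 lower, but 153 higher and 61 lower once centred on the guide 3p-miRNAs). The 62 guide 3p-miRNAs had a median of -0.11, and 19.4% of them were called lower, with 18 of them below miR-103-3p and 14 below miR-107-3p.

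The HetKO values differed between replicate pairs. miR-107-3p changed by -0.14 within replicates 1 and 4, by -0.51 within 2 and 5, and by -0.77 within 3 and 6. miR-103-3p changed by 0.029, -0.41 and -0.61 within the same pairs. With each pair averaged, miR-107-3p had an adjusted p of 0.179 in limma. Against the 62 guide 3p-miRNAs, neither strand passed the test in HetKO, where miR-103-3p differed from WT by 0.019 (exact permutation p = 0.848, adjusted 0.889) and miR-107-3p by -0.13 (exact permutation p = 0.292, adjusted 0.429). The value of miR-107-3p was -0.33 against stricter guide strands (unadjusted exact permutation p = 0.00649) and -0.19 against the guides' median (unadjusted exact permutation p = 0.00866).

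HM against HetKO is the closest comparison for the RNase IIIb change, since both lines have lost 1 allele. Each group is 1 line, so this change cannot be told apart from other differences between the lines. Neither 3p strand passed the test: miR-103-3p differed by 0.17 (SE 0.17, adjusted p = 0.348 in limma) and miR-107-3p by 0.078 (SE 0.15, adjusted p = 0.637 in limma). That is 0 of 2 members by limma, with 0 of 2 also by limma-voom and at an unadjusted p under 0.05, where 84.8% of 395 miRNAs were called (117 higher and 218 lower). Rescaled to the same miRNA total, both passed, miR-103-3p at 1.18 and miR-107-3p at 1.08. The 62 guide 3p-miRNAs had a median change of -0.045 here, with 38 of them below miR-103-3p and 34 below miR-107-3p. Of the 62, limma called 29% higher and 40.3% lower. Relative to the guide 3p-miRNAs, miR-107-3p was higher in HM than in HetKO by 0.22 (exact permutation p = 0.0130, adjusted 0.0381). miR-103-3p was higher by 0.31 on that scale, which did not pass after adjustment (exact permutation p = 0.0195, adjusted 0.0504). Which strand passed depended on the test. In limma centred on the guide 3p-miRNAs, miR-103-3p passed (adjusted p = 0.0418) and miR-107-3p did not (adjusted p = 0.0779), and with the replicate number as a block neither passed (exact permutation p = 0.0938 and 0.0625). Against stricter guide strands the values were 0.60 and 0.51. Within replicates 1 and 4 these differences were 0.019 for miR-107-3p and 0.00086 for miR-103-3p, and within 3 and 6 they were 0.46 and 0.77.

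The passenger strands of these duplexes are on the 5p arm and were rare even in WT. miR-107-5p had 5.31 to 12.5 signal units in WT (median 7.16), from 14 to 39 reads per library. HetKO libraries had 3.05 to 5.74 (median 5.09), from 10 to 17 reads. In HM, replicate 3 held 1 read (0.287 units) and the other 5 libraries held 0, so HM did not overlap WT or HetKO. Nearly all 5p-miRNAs were lower in HM: limma called 98.9% of 180 lower against WT and 98.2% of 167 lower against HetKO. The WT level was 160-fold that of HM over pooled reads, with a 95% counting interval of 28.2 to 6363 that reflects the single HM read. The difference from WT was -7.78 units (exact permutation p = 0.00216, the smallest that 924 relabellings can give, adjusted 0.00952). miR-107-5p was also lower in HetKO than in WT, at 4.90 ± 1.00 against 7.83 ± 2.53 units (SD, n = 6; exact permutation p = 0.00866, adjusted 0.0293). With the replicate number as a block that difference did not pass (exact permutation p = 0.0625), and the test takes the 6 libraries as independent although replicate pairs deviated together. Within replicates 2 and 5 that difference was -0.92, and within 3 and 6 it was -5.67.

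miR-103-1-5p, the only 5p strand of miR-103 in the tables, was rarer still. WT libraries had 0.811 to 5.06 signal units (median 1.85), from 2 to 14 reads, and replicates 1 and 4 were highest. HetKO libraries had 1.02 to 3.38 units (median 1.91), from 3 to 10 reads. All 6 HM libraries were at 0, where 98.9% of the 5p-miRNAs tested were called lower than in WT. WT was at least 17.1-fold higher than HM, and HetKO at least 13.9-fold, when HM is set at 3 reads over the group. The difference between HM and WT was -2.57 units (exact permutation p = 0.00216, adjusted 0.00952). HetKO and WT overlapped (2.09 ± 0.882 against 2.57 ± 1.79, SD, n = 6; exact permutation p = 0.571, adjusted 0.645).

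As a share of the duplex, which needs no scaling between libraries, the 5p strand of miR-107 made up 2.39 ± 0.835% in WT, 2.08 ± 0.465% in HetKO and 0.0182 ± 0.0446% in HM (SD, n = 6). HM was lower than WT (exact permutation p = 0.00216, adjusted 0.00952), and HetKO differed from WT by less than the spread between replicates (exact permutation p = 0.494, adjusted 0.587). For miR-103 the 5p share was 0.0189 ± 0.0136% in WT and 0.0185 ± 0.00663% in HetKO (SD, n = 6). It was 0 of 250345 reads in HM, which allows a share of up to 0.00120%. So the 5p strand was a larger part of the miR-107 duplex than of the miR-103 duplex in each WT library. The lowest WT share of miR-107-5p was 1.46% and the highest WT share of miR-103-1-5p was 0.0384%. Whether reads of miR-103-2-5p were counted under miR-103-1-5p is not given in the sources used here, so the share of miR-103 may or may not include them.

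**Figure D3:**
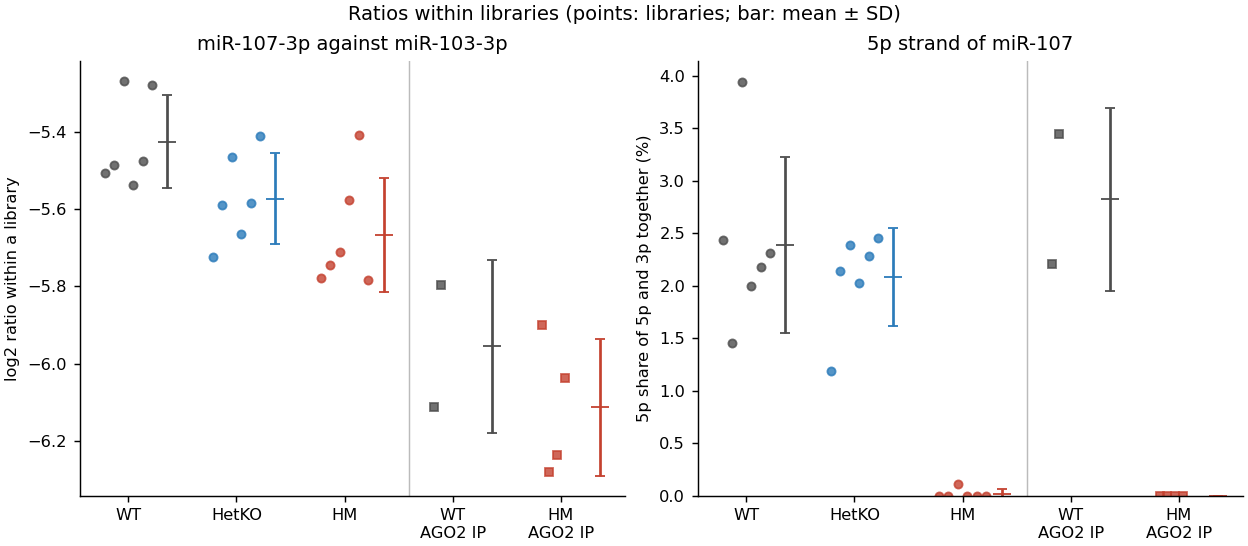
Within-library ratios in P19, with circles for total RNA, squares for AGO2 IP and bars for the mean ± SD: log2 of miR-107-3p over miR-103-3p (left, y axis not starting at 0) and the 5p share of the miR-107 duplex in percent (right). The log2 ratio was lower in AGO2 IP than in total RNA for both genotypes, and the 5p share was at most 0.109% in every HM library.

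The ratio of the near-identical 3p strands within a library also needs no scaling. WT libraries had a log2 ratio of miR-107-3p to miR-103-3p of -5.43 ± 0.12, HetKO libraries had -5.57 ± 0.12 and HM libraries had -5.67 ± 0.15 (SD, n = 6). HM was lower than WT by 0.24 on the log2 scale, which did not pass after adjustment (exact permutation p = 0.0195, adjusted 0.0504), and the groups overlapped. Within the replicate pairs this difference was -0.10 for 2 and 5 and -0.47 for 3 and 6.

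In AGO2 IP the same ratio was lower than in total RNA. It was -5.95 ± 0.22 in WT AGO2 IP (SD, n = 2) and -6.11 ± 0.18 in HM AGO2 IP (SD, n = 4), with no overlap with the total RNA of the same genotype. The difference in HM was -0.45 (exact permutation p = 0.00476, adjusted 0.0175). The difference in WT was -0.53 (exact permutation p = 0.0357, the smallest that 2 against 6 libraries allow, adjusted 0.0827). Between the AGO2 IP of HM and WT the ratio differed by -0.16 (exact permutation p = 0.400, adjusted 0.503), and by -0.32 without WT AGO2 IP replicate 1 and 0.00013 without WT AGO2 IP replicate 2. AGO2 IP and total RNA libraries were separate preparations, and their part in this difference was not tested.

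AGO2 IP shows which strands were held by the effector protein. miR-103-3p had 13736 and 15670 RPM in the WT libraries, and 33167, 32163, 32323 and 30131 RPM in the HM libraries. miR-107-3p had 198 and 282 RPM in WT, and 556, 414, 429 and 459 RPM in HM. The groups did not overlap for either strand. miR-103-3p was higher in HM (log2 change 1.12, SE 0.16, adjusted p = 0.000596 in limma), and so was miR-107-3p (log2 change 0.96, SE 0.23, adjusted p = 0.00603 in limma). These are 2 of 2 members called higher where 54% of 467 miRNAs, 83.9% of 285 3p-miRNAs and 71% of the 62 guide 3p-miRNAs were called higher, and 91.2% of all were called in either direction.

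RPM is relative to the read total the authors used, and 5p-miRNAs had nearly gone from the HM total (97.6% of 166 called lower). The median of the 62 guide 3p-miRNAs was 1.26 in this comparison, with 27 of them below miR-103-3p and 22 below miR-107-3p. Relative to those strands, miR-103-3p differed between HM and WT AGO2 IP by -0.12 (exact permutation p = 0.533, adjusted 0.618) and miR-107-3p by -0.28 (exact permutation p = 0.400, adjusted 0.503). With 2 against 4 libraries the smallest exact p is 0.0667, so this test cannot pass 0.05. The value of miR-103-3p was 0.053 without WT AGO2 IP replicate 1, -0.30 without WT AGO2 IP replicate 2 and 0.19 against stricter guide strands, and that of miR-107-3p was 0.025 against stricter guide strands. Rescaled to the same sum per library, the log2 changes were 0.88 and 0.72, and both strands were still called.

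The 5p strands were also near 0 in HM AGO2 IP, where 97.6% of 166 5p-miRNAs were called lower than in WT AGO2 IP. miR-103-1-5p had 3.29 and 5.58 RPM in WT AGO2 IP, from 22 and 40 reads, and 1 read in the 4 HM libraries together. miR-107-5p had 4.48 and 10.1 RPM in WT AGO2 IP, from 30 and 72 reads, and 0 reads in all 4 HM libraries. WT was at least 48.2-fold higher than HM for miR-107-5p, with HM set at 3 reads over the group. In WT, the 5p share in AGO2 IP was 2.83 ± 0.873% for miR-107 and 0.0298 ± 0.00827% for miR-103 (SD, n = 2), which overlapped the shares in WT total RNA (exact permutation p = 0.607 and 0.393, adjusted 0.668 and 0.503).

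AGO2 enrichment, the mean RPM in AGO2 IP over the mean signal in total RNA, was 1.05 in WT and 2.56 in HM for miR-103-3p, and 0.741 and 1.89 for miR-107-3p. The 62 guide 3p-miRNAs had medians of 0.851 in WT and 3.04 in HM, values that were likewise higher in HM. In WT, 42 of the 62 were below miR-103-3p and 22 below miR-107-3p. In HM, 26 were below miR-103-3p and 14 below miR-107-3p. With total RNA alone rescaled to the miRNA total, the members had 1.12 and 1.25 (miR-103-3p, WT and HM) and 0.782 and 0.925 (miR-107-3p). With both assays rescaled to the miRNA total, miR-103-3p had 1.35 in WT and 1.28 in HM, miR-107-3p had 0.946 and 0.947, and the guide median was 1.09 and 1.54. No test was made of these ratios. For miR-103-3p the order of WT and HM changed with the scale.

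The relative level, which the assays' scales do not enter, was compared between AGO2 IP and total RNA within each genotype. It is the place of a strand against the guide 3p-miRNAs, and whether enrichment differed between WT and HM was not tested. In HM, miR-107-3p was lower in AGO2 IP than in total RNA relative to the guide 3p-miRNAs (difference -0.62, exact permutation p = 0.00476, the smallest possible, adjusted 0.0175). In WT it differed by -0.25 (exact permutation p = 0.321, adjusted 0.456). miR-103-3p differed by 0.28 in WT (exact permutation p = 0.143, adjusted 0.233) and by -0.17 in HM (exact permutation p = 0.195, adjusted 0.307). The values of miR-103-3p depended on the guides. Against stricter guide strands WT was at 0.43 (unadjusted exact permutation p = 0.0357) and HM changed sign to 0.20 (unadjusted exact permutation p = 0.0476), and against the guides' median HM was at -0.41 (unadjusted exact permutation p = 0.0238). The WT value was 0.11 without WT AGO2 IP replicate 1 and 0.45 without WT AGO2 IP replicate 2. For miR-107-3p in HM, the value was -0.24 against stricter guide strands and -0.86 against the guides' median, and in WT it was -0.10 and -0.29.

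miR-103-3p and miR-107-3p belong to the miR-15/miR-107 group, which shares AGCAGC near the 5′ end and so overlaps in the messages it can pair with. The other listed members (miR-15a-5p, miR-15b-5p, miR-16-5p, miR-195a-5p, miR-322-5p, miR-497a-5p and miR-503-5p) are strands of the 5p arm. All 7 of these were lower in HM than in WT (median log2 change -7.15), where 98.9% of 5p-miRNAs were. miR-16-5p, the most abundant, had 64406 ± 7801 signal units in WT and 709 ± 273 in HM. miR-322-5p, with the largest change of the list, had 7675 ± 670 in WT and 15.8 ± 13.3 in HM (SD, n = 6). In HetKO, 1 of the 7 was lower than in WT (miR-322-5p, log2 change -0.35, adjusted p = 0.00854 in limma), where 25.5% of 5p-miRNAs were. That call was not followed through the other settings, and with replicate pairs averaged 17 of all miRNAs were called in HetKO against WT.

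miR-103-3p and miR-107-3p together made up most of the group in HM. Their share was 13.98 to 15.7% in the WT libraries (median 14.8%), 9.84 to 15.5% in HetKO (median 13.5%) and 89.1 to 95.8% in HM (median 94.7%). HM did not overlap WT or HetKO, and HM replicate 5 was the lowest of its group. The mean share was 14.8 ± 0.577% in WT and 93.96 ± 2.45% in HM (SD, n = 6; exact permutation p = 0.00216, adjusted 0.00952). The summed level of the 9 strands was lower in HM than in WT, falling from 96613 ± 10694 to 13519 ± 949 signal units (exact permutation p = 0.00216), which is 13.99% of WT. In HetKO the share was 12.9 ± 2.30% (exact permutation p = 0.0844 against WT, adjusted 0.143). miR-103-3p and miR-107-3p are 3p strands, and the other 7 are 5p strands. Their share was therefore bound to rise in HM, where 98.9% of 5p-miRNAs were called lower than in WT. Of the summed 3p signal, miR-103-3p and miR-107-3p made up 2.83% in WT and 2.67% in HM.

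The same shift was present in AGO2 IP, where 97.6% of 5p-miRNAs were called lower in HM than in WT. The share was 21.9 and 23.8% in the WT libraries and 93.2 to 93.8% in the 4 HM libraries, with no overlap (exact permutation p = 0.0667, the smallest possible, adjusted 0.117). In HM AGO2 IP, miR-103-3p alone made up 92.1% of the group on average, miR-16-5p 5.54% and miR-107-3p 1.34%. In WT AGO2 IP miR-16-5p made up 59.02%.

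**Figure D4:**
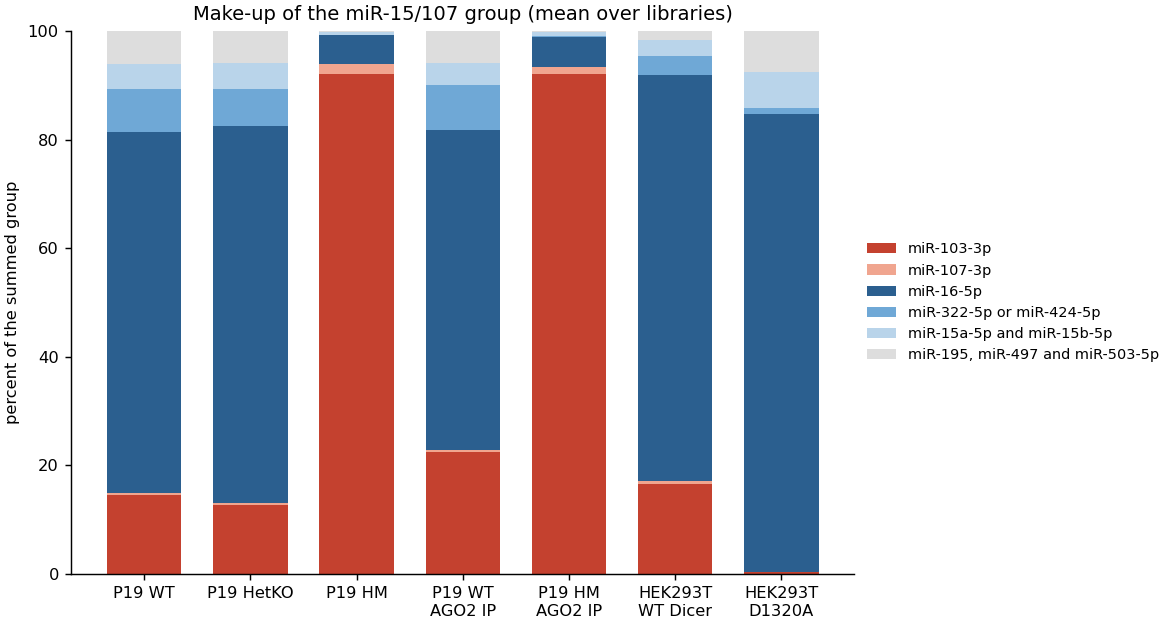
Make-up of the miR-15/miR-107 group (y axis, percent of the summed group, stacked) in 5 P19 groups (mean over libraries) and 2 HEK293T libraries. miR-103-3p and miR-107-3p (reds) made up 14.8% in P19 WT, 93.96% in P19 HM, 17.1% in HEK293T with WT Dicer and 0.348% with D1320A.

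let-7 5p strands are the other Dicer-targeting family considered here. All 8 that passed the filter were lower in HM than in WT (median log2 change -4.79), where 98.9% of 5p-miRNAs were called lower. In HetKO, 6 of 9 were called lower than in WT (median -0.60), where 25.5% of 5p-miRNAs were. These let-7 calls were not followed through the other settings. With replicate pairs averaged, 17 of all miRNAs were called in HetKO against WT, and 118 in the main fit. Centred on the guide 3p-miRNAs, more of all miRNAs were called higher than lower. let-7f-5p, the most abundant of them in WT, had 1076 signal units there and 25.2 in HM, both below miR-103-3p.

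Across the 18 total RNA libraries, miR-103-3p and miR-107-3p followed each other (Pearson r = 0.823 of log2(signal + 1)). Among 234 other miRNAs with a mean of at least 100, the 5 most like miR-103-3p were miR-148b-3p (r = 0.863), miR-344-3p (0.816), miR-598-3p (0.744), miR-3535 (0.737) and miR-344d-3p (0.687). The 5 most like miR-107-3p were miR-1983 (r = 0.808), miR-301a-3p (0.757), miR-148b-3p (0.749), miR-101b-3p (0.727) and miR-344-3p (0.703). These libraries share genotypes and replicate pairs, so r is a description. With group means removed, miR-103-3p and miR-107-3p had r = 0.834.

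HEK293T cells asked the reverse question, with the RNase IIIa domain changed. Each condition is 1 library, so the values have no replicate check and no test was made. miR-103a-3p had 21445 reads with WT Dicer, where it ranked 11 of 832 miRNAs, and 81 with D1320A, where it ranked 82 of 443. miR-107-3p had 647 reads with WT Dicer and 1 with D1320A. miR-103a-2-5p had 3 reads with WT Dicer and 6 with D1320A. The 3p strands were nearly gone with D1320A, and the 5p strand was at the limit of detection in both libraries.

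On the deposited score, miR-103a-3p with D1320A was at 0.395% of its level with WT Dicer (95% counting interval of the ratio 0.00313 to 0.00491). miR-107-3p was at 0.161% (4.08e-05 to 0.00903). The ratio for miR-103a-2-5p was 2.09 (0.446 to 12.9), an interval that includes no difference. All 146 3p-miRNAs compared fell below 1/2 of their WT Dicer level (100%), with a median log2 ratio of -5.79, and 8 of them were below miR-103a-3p and 3 below miR-107-3p. Of 160 5p-miRNAs, 78.1% fell below 1/2 and 6.88% exceeded 2 times, with a median of -2.11. Rescaled to the same total, 94.5% of the 3p-miRNAs were below 1/2 (median -4.10), while 18.1% of the 5p-miRNAs were below 1/2 and 42.5% above 2 times (median 0.80). On that scale the ratio was 0.02996 (0.0238 to 0.0373) for miR-103a-3p and 15.9 (3.39 to 98.04) for miR-103a-2-5p.

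**Figure D5:**
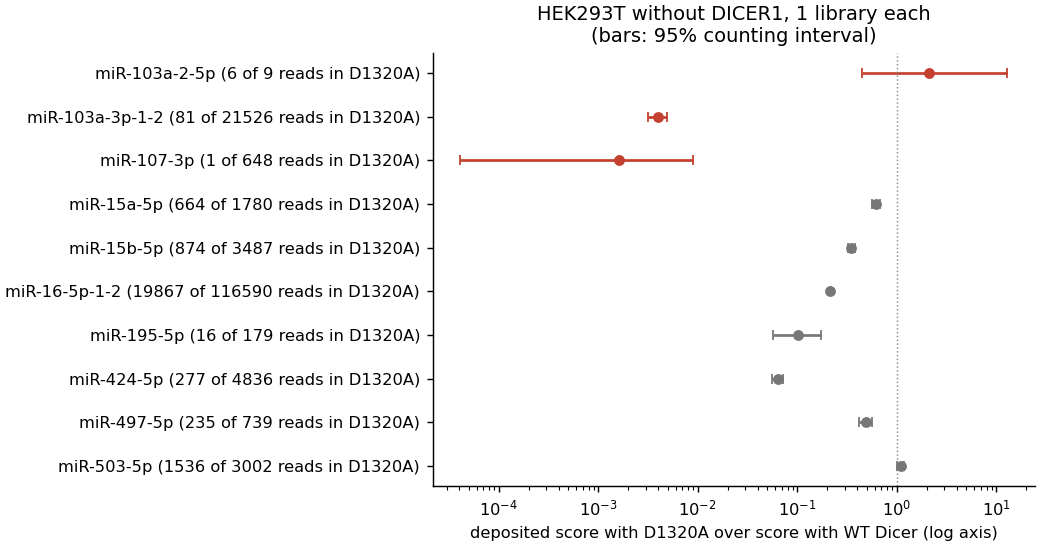
Ratio of the deposited score with D1320A to that with WT Dicer in HEK293T cells lacking DICER1 (x axis, log scale), for the miR-103 and miR-107 strands (red) and the 5p strands of the miR-15/miR-107 group (grey), with 95% counting intervals and read numbers beside the names. miR-103a-3p and miR-107-3p lay at 0.00395 and 0.00161, and the 7 group strands between 0.0635 and 1.09.

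In HEK293T the make-up of the miR-15/miR-107 group moved the other way with D1320A. All 146 3p-miRNAs compared fell below 1/2 of their WT Dicer level there. miR-103a-3p and miR-107-3p were 17.1% of the group's reads with WT Dicer (22092 of 129236, Wilson interval 16.89 to 17.3%) and 0.348% with D1320A (82 of 23551, 0.281 to 0.432%). miR-16-5p was at 21.5% of its WT Dicer score and miR-503-5p at 109%, but rescaled to the same total their ratios were 1.63 (1.60 to 1.65) and 8.31 (7.73 to 8.93), so the direction of miR-16-5p turned. miR-107-3p was 2.93% of the reads of both 3p strands with WT Dicer (Wilson interval 2.71 to 3.16%). With D1320A it was 1 of 82 reads, with an interval of 0.216 to 6.59% that includes that value.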

How the data were processed

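QIAseq libraries were quantified by the authors with QuagmiR, and a genome build or miRNA release for this step is not given in the sources used here. For total RNA, the authors deposited a signal, reads divided by a spike-in factor. For AGO2 IP, the authors deposited RPM. The HEK293T values deposited were read as a score, reads times 1 unstated factor per library. Deposited floors (0.01 for P19, 1 for HEK293T) were read as 0. Of 1413 P19 names, 17 were blank. The 2 names of the chromosome 12 cluster that the authors set aside were kept in the limma tests, as designed, and left out of the guide strands.

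Single miRNAs were compared with limma 3.58.1 in R 4.3.3 on log2(value + 1), for means of at least 10, with Benjamini-Hochberg adjustment over all miRNAs tested. An adjusted p under 0.05 was a call. Fold changes on this scale understate changes of low miRNAs. Ratios, shares, relative levels and 5p levels were compared by two-sided exact permutation tests over libraries, adjusted over 44 tests. These tests take libraries as independent although replicate pairs deviated together in WT and HetKO. The tests were checked on simulated data. Counting intervals (95%) and limits from 3 reads cover counting error only. A level of 1 read sets the precision of the 5p strands. No 2 libraries of a group agreed within sampling noise (chi-square per degree of freedom at least 4.58). Sample groups came from the labels, and the replicates are libraries of the same lines, so p-values measure the spread between these libraries.

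Members, lists, tests and the rule for named miRNAs (members, listed miR-15/miR-107 strands, let-7 by counts, and the 5 most alike) were chosen with earlier results of these data known. let-7f-5p was named after its values were seen. Tests on the 5p levels, AGO2 IP against total RNA beyond the relative level, limma-voom on recovered reads, a widened miR-15/miR-107 group and AGO2 enrichment with both assays rescaled were chosen after seeing the data. Python 3.11.15, scipy 1.17.1 and matplotlib 3.10.9 were used.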

Additional observations from a re-analysis of the deposited data

Results flagged for a closer look

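By Dixon's test 1 library stood apart in 8 of 36 groups. Chance sets about 5% of independent groups apart, but these groups are not independent: levels and shares use the same reads, and a lone read against 0 in all other libraries always stands apart, so the count is not set against that share. In HM, replicate 3 held the only miR-107-5p read (0.287 units, a 5p share of 0.109%, against 0 in the other 5 libraries). In HM AGO2 IP, replicate 4 held the only miR-103-1-5p read (0.190 RPM, a 5p share of 0.000630%, against 0 in the other 3). In HetKO, replicate 1 had the lowest miR-107-5p level (3.05 units against 4.75 to 5.74 in the other 5) and the lowest 5p share of miR-107 (1.19% against 2.02 to 2.46%). HetKO replicate 4 had the highest miR-107-3p level relative to guide 3p-miRNAs (-2.43 against -2.68 to -2.60). HM replicate 5 had the lowest share of miR-103-3p and miR-107-3p in the miR-15/miR-107 group (89.1% against 94.2 to 95.8%), with the share still above every WT and HetKO library.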

How the results depend on the processing

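Calls of permutation results are judged here on the unadjusted p, and the cause of each change was not tested unless stated. Leaving out each library in turn reversed 14 of 648 values, none of them past the threshold, weakened 4 and strengthened 5. The reversals lay in HetKO against WT for the 5p share of miR-103 (-0.00310 to 0.00352 percentage points), that of miR-107 (-0.492 to 0.00454), the relative level of miR-103-3p (-0.033 to 0.066) and the miR-103-1-5p level (-0.83 to 0.022 units). They also lay in WT AGO2 IP against total RNA for the 5p share of miR-107 (-0.179 to 1.06), and in HM against WT AGO2 IP for the log2 ratio (-0.32 to 0.00013) and the relative level of miR-103-3p (-0.30 to 0.053). The log2 change of miR-103-3p ranged over -0.20 to -0.11 (HM against WT), -0.40 to -0.24 (HetKO against WT), 0.080 to 0.24 (HM against HetKO) and 1.03 to 1.22 (AGO2 IP), and that of miR-107-3p over -0.46 to -0.36, -0.54 to -0.42, 0.018 to 0.13 and 0.71 to 1.21. HetKO against WT crossed the threshold for the log2 ratio (-0.18 to -0.12, passing without HetKO replicate 6 or WT replicate 4) and for the share of the miR-15/miR-107 group (-2.36 to -1.23 percentage points, passing without HetKO replicate 1 or 4).

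Members called in HM against WT were 1, but 3 with no filter, 2 when rescaled, and 0 within replicates 1 and 4, within 3 and 6 and for averaged pairs. In HetKO against WT they were 1, but 0 when centred on guide 3p-miRNAs, 0, 2 and 2 within the pairs and 0 for averaged pairs. In HM against HetKO they were 0, but 2 with no filter, 2 when rescaled, 1 when centred and 1 within replicates 3 and 6. In AGO2 IP they were 2, but 4 with no filter and 0 when centred. Unfiltered calls add the 5p strands, since more names are tested. Over all miRNAs, calls with no filter were 633 (HM against WT), 652 (HM against HetKO) and 805 (AGO2 IP), and with a mean of at least 100 were 200, 197 and 257, and 63 in HetKO against WT. HetKO against WT gave 214 when centred, 207 within replicates 2 and 5 and 17 for averaged pairs.

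Directions reversed as follows. In HM against WT, rescaling gave 0.95 for miR-103-3p and 0.71 for miR-107-3p, centring gave 0.33 and 0.092, and replicates 3 and 6 gave 0.049 for miR-103-3p. In HetKO against WT, miR-103-3p was at 0.019 when centred and 0.029 within replicates 1 and 4. In HM against HetKO, replicates 1 and 4 gave -0.22 for miR-103-3p and -0.20 for miR-107-3p. In AGO2 IP, centring gave -0.12 and -0.28.

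Within pairs of replicates, the 5p share of miR-103 differed by -0.0360 (1 and 4) and -0.00853 (2 and 5) percentage points in HM against WT, by -0.0220, 0.0179 (2 and 5) and 0.00295 (3 and 6) in HetKO against WT, and by -0.0264 (2 and 5) in HM against HetKO. That of miR-107 differed by -3.07 (3 and 6, HM against WT), 0.395 (2 and 5, HetKO against WT) and -1.61 (1 and 4, HM against HetKO). The log2 ratio differed by -0.10 (2 and 5) and -0.47 (3 and 6) in HM against WT and by -0.31 (3 and 6), 0.017 (1 and 4) and 0.0087 (2 and 5) in HM against HetKO. The relative level of miR-103-3p differed by 0.13 (2 and 5, HM against WT), 0.41 (1 and 4), -0.035 (2 and 5) and -0.32 (3 and 6) in HetKO against WT, and 0.00086 (1 and 4) and 0.77 (3 and 6) in HM against HetKO. That of miR-107-3p differed by -0.020 (3 and 6) in HM against WT, 0.24 and -0.48 in HetKO against WT and 0.019 and 0.46 in HM against HetKO. The miR-103-1-5p level differed by 1.77 units (2 and 5) in HetKO against WT. The group share differed by 76.9 (2 and 5) and 81.02 (3 and 6) in HM against WT, 0.307 (1 and 4) and -4.02 (3 and 6) in HetKO against WT, and 85.04 (3 and 6) in HM against HetKO.

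Against stricter guide strands, the relative level of miR-103-3p in AGO2 IP against total RNA was 0.43 in WT (exact permutation p = 0.0357) and 0.20 in HM, reversed (exact permutation p = 0.0476), and that of miR-107-3p was 0.17 in HM against WT (exact permutation p = 0.00649) and -0.33 in HetKO against WT (exact permutation p = 0.00649). Signs also turned there for miR-103-3p in HetKO against WT (-0.19) and for both strands between the AGO2 IP of HM and WT (0.19 and 0.025). Against the guides' median, miR-103-3p in HetKO against WT was -0.043, in HM AGO2 IP against total RNA was -0.41 (exact permutation p = 0.0238), and miR-107-3p was 0.32 in HM against WT (exact permutation p = 0.0108), -0.19 in HetKO against WT (exact permutation p = 0.00866) and -0.29 in WT AGO2 IP against total RNA (exact permutation p = 0.0357). AGO2 enrichment in HM with total RNA rescaled was 1.25 (miR-103-3p) and 0.925 (miR-107-3p), and with both assays rescaled it was 1.28 and 0.947, with 1.35 and 0.946 in WT. In HEK293T, log2 ratios rescaled to the same total were -5.06 (miR-103a-3p), -6.35 (miR-107-3p) and 3.99 (miR-103a-2-5p).

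Replicate numbers paired the samples weakly at most. The mean correlation of same-numbered libraries was -0.00820 between WT and HetKO, 0.0895 between WT and HM, and 0.161 between HetKO and HM (0.0554 to 0.387). The own number was the best match in 12 of 36 comparisons, each among 6 libraries. With the replicate number as a block, limma called the same members, with 347, 115, 341 and 418 miRNAs called in the 4 comparisons. The log2 ratio of -0.24 in HM against WT did not pass (exact permutation p = 0.0938), that of -0.15 in HetKO against WT did (exact permutation p = 0.0313), and the relative levels of 0.31 (miR-103-3p, exact permutation p = 0.0938) and 0.22 (miR-107-3p, exact permutation p = 0.0625) in HM against HetKO and the miR-107-5p level in HetKO against WT (exact permutation p = 0.0625) did not. limma-voom on recovered reads called 1, 1, 0 and 2 members. The planned edgeR and DESeq2 fits were not run, as the deposited values are not counts, and miR-103-2-5p alone could not be used. Depth limits the 5p strands most, at 2 to 39 reads per WT total RNA library.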
